A study of Rattus norvegicus with 4 samples.

Results

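The transforming growth factor beta (TGF-beta) genes of cultured rat Schwann cells (SCs) were examined after ectopic expression of the Egr2-AS. The group held 9 genes chosen by name: the ligands Tgfb1, Tgfb2 and Tgfb3, the receptors Tgfbr1, Tgfbr2 and Tgfbr3, the latent ligand binding protein Ltbp1, and the response genes Skil and Smad7. Of these, 8 were read by symbol from the 17949 genes counted, and Skil was not analysed here. All 8 had at least 10 counts in at least 2 samples and entered the test.

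TGF-beta ligands are secreted in a latent form that LTBP proteins tie to the extracellular matrix, and integrins, thrombospondin and proteases release them. The free ligand, which Tgfbr3 (betaglycan) can present, joins the kinase Tgfbr2 with the kinase Tgfbr1. The receptor complex phosphorylates SMAD2 and SMAD3, which enter the nucleus with SMAD4, and SMAD7 and SnoN, the product of Skil, are induced by the pathway and restrain it. In SCs, TGF-beta is known to affect proliferation and to hold back myelin genes in culture, and its ligands are present in injured nerve.

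RNA-seq was performed on primary SCs from rat sciatic nerve, 48 h after infection with a lentivirus expressing the Egr2-AS, an antisense RNA to the Egr2 promoter (Lenti-AS, n = 2), or with a virus carrying a green fluorescent protein as control (Lenti-GFP, n = 2). The vector of the Egr2-AS carried a red fluorescent reporter, so the groups differ in their reporter as well. Both groups were grown with 10% serum, forskolin at 4 μM, which raises cAMP, and the ErbB ligand heregulin-β1 at 5 ng/ml. No altered genotype is named, strain and age are not given in the sources used here, and the labels call the samples biological replicates without naming separate animals or cultures, so p-values measure the spread between these samples.

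Library totals ranged from 74024323 to 96185890 counts. All 10 SC markers on the list had a mean of 1 CPM or more (counts per 1000000, with library sizes scaled by TMM), with a summed level of 9204 and 9251 CPM in Lenti-GFP 1 and 2 and of 10688 and 9616 CPM in Lenti-AS 1 and 2. The endothelial marker Cdh5 and the leukocyte marker Ptprc stayed at or under 0.0536 and 0.120 CPM, with Cdh5 at 0 in Lenti-GFP 2, while the fibroblast list was mixed, with Thy1, Lum and Dcn at or under 0.0321 CPM, Pdgfra between 3.09 and 4.07, Pdgfrb between 225 and 279 and Col1a1 between 290.1 and 2131 CPM. The summed macrophage and endothelial lists ranged from 3.52 to 4.40 and from 15.1 to 20.7 CPM, the latter almost all Tek. Tek was lower in both Lenti-AS samples, at 19.8 and 20.2 CPM in Lenti-GFP 1 and 2 and at 15.3 and 14.7 CPM in Lenti-AS 1 and 2 (log2 fold change -0.42, edgeR adjusted p = 0.0559). Of all the markers listed, 1 was called, the myelin gene Mbp, at 29.6 and 32.1 CPM in Lenti-GFP 1 and 2 and at 42.0 and 43.6 CPM in Lenti-AS 1 and 2 (edgeR adjusted p = 0.0428). That was 1 of the 10 SC markers tested (10%, against 1.98% of all genes tested). At an unadjusted p under 0.05 in edgeR, 6 SC markers were higher in Lenti-AS and 1 lower (70%, against 21.8% of all genes). The Lenti-AS libraries stood apart from each other. Among the 10251 genes averaging 1 CPM or more, those over 2-fold apart numbered 188 within the Lenti-AS pair and 9 within the Lenti-GFP pair, and globin genes summed to 259574 counts in Lenti-AS 2 against 462 to 953 in the others. Results on the members are therefore also given without each Lenti-AS sample where that changes them. Such a fit has 1 Lenti-AS sample and takes its spread from the Lenti-GFP pair, so its p-values and counts of calls are not given.

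No member was called differentially expressed, which required an adjusted p under 0.05 (Benjamini-Hochberg over the 12446 genes tested, edgeR's quasi-likelihood test) and a fold change of at least 1.3. That was 0 of 8, where 1.98% of all genes tested were called. DESeq2 also called 0 of 8, with 5.04% of all genes. At an unadjusted p under 0.05 there were 2 of 8 members, Ltbp1 and Tgfb3, both lower in Lenti-AS, against 21.8% of all genes. Both Lenti-AS samples lay below both Lenti-GFP samples for 4 of 8 members (Ltbp1, Tgfb3, Tgfb2 and Tgfbr1), and above them for 0, while the groups did not overlap, in either direction, for 54.9% of all genes. Taken in either direction, these shares are near those of the whole table or below them. Lower alone, the groups were apart for 3383 of the 12446 genes, a smaller share than the 4 of 8 members. Whether the members leaned lower was not tested. The median log2 fold change was -0.14 over the 8 members and 0.0071 over all genes. The smallest two-sided p that an exact permutation test allows for 2 samples per group is 0.333. In cultures sequenced in bulk, fewer cells that express a gene and less RNA per cell cannot be told apart. The table gives no gene lengths, so levels are compared between samples of one gene and not between genes.

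**Figure D1:**
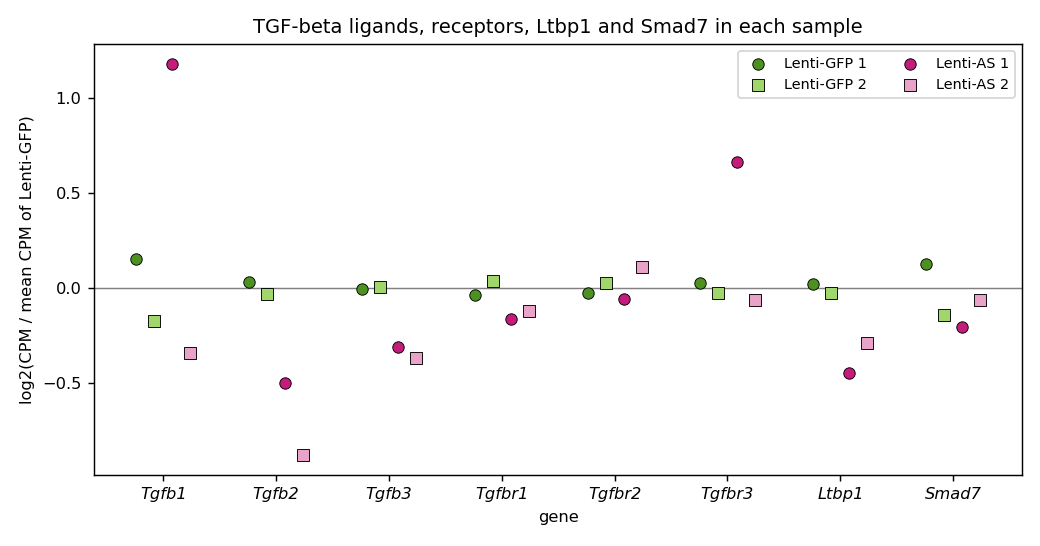
Level of each of the 8 members in each sample, as log2 of its CPM over the mean CPM of the 2 Lenti-GFP samples, so 0 is the control mean. Circles are replicate 1 and squares replicate 2, green for Lenti-GFP and pink for Lenti-AS. Tgfb2, Tgfb3, Tgfbr1 and Ltbp1 have both Lenti-AS samples under both controls, and Tgfb1 and Tgfbr3 are high in Lenti-AS 1 alone.

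Among the ligands, Tgfb3 had the narrowest spread relative to its level. Tgfb3 was at 6.37 and 6.44 CPM in Lenti-GFP 1 and 2 and at 5.16 and 4.96 CPM in Lenti-AS 1 and 2. Both Lenti-AS samples were lower, and the gap of 1.22 CPM that separated the groups was larger than the spread within either. The mean was 6.40 ± 0.0438 CPM for the controls and 5.06 ± 0.138 CPM for Lenti-AS (± SD, n = 2). The log2 fold change of Tgfb3 was -0.34 (standard error 0.13, 95% interval -0.65 to -0.03), with an edgeR adjusted p = 0.199 (unadjusted p = 0.0358), so it did not pass the threshold.

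Tgfb2 was sparsely counted, with 77 and 75 counts in Lenti-GFP 1 and 2 and 50 and 33 in Lenti-AS 1 and 2. These were 0.825, 0.791, 0.570 and 0.439 CPM, so again both Lenti-AS samples were the lower ones. The log2 fold change of -0.67 for Tgfb2 was the furthest below 0 among the members, but its 95% interval, -1.38 to 0.03, included 0 (standard error 0.29, edgeR adjusted p = 0.243).

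Tgfb1, the ligand most often studied, behaved differently between the Lenti-AS samples. Tgfb1 was at 3.47 and 2.76 CPM in Lenti-GFP 1 and 2, at 7.07 CPM in Lenti-AS 1 and at 2.46 CPM in Lenti-AS 2. Lenti-AS 1 was the highest and Lenti-AS 2 the lowest of the samples, 2.87-fold apart, and 99.3% of the 10251 genes differed less between these libraries. The fitted log2 fold change of Tgfb1, 0.62, had a 95% interval from -0.52 to 1.76 (standard error 0.47, edgeR adjusted p = 0.473). It was 1.18 without Lenti-AS 2 and -0.34 without Lenti-AS 1, so its direction depended on 1 library. The ratio of Tgfb1 to Tgfb3 CPM, which gene length affects alike in each sample, was 0.545 and 0.430 in Lenti-GFP 1 and 2, 1.37 in Lenti-AS 1 and 0.496 in Lenti-AS 2. In Lenti-AS 2 this ratio lay between those of the controls.

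The kinase receptors had the narrowest intervals of the members. Tgfbr2, the kinase that binds the ligand first, was at 475 and 493 CPM in Lenti-GFP 1 and 2 and at 464 and 523 CPM in Lenti-AS 1 and 2. The Lenti-AS samples held the lowest and the highest value, and the groups overlapped. Its log2 fold change was 0.03 with a 95% interval of -0.15 to 0.20 (edgeR adjusted p = 0.843), an interval that lies within a change of 1.3-fold in either direction.

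Tgfbr1, the kinase that phosphorylates the SMADs, was at 93.6 and 98.2 CPM in Lenti-GFP 1 and 2 and at 85.5 and 88.2 CPM in Lenti-AS 1 and 2. Both Lenti-AS samples were lower, with a gap of 5.42 CPM between the groups, against an SD of 3.28 CPM for the controls and 1.85 CPM for Lenti-AS. The log2 fold change of Tgfbr1 was -0.14 with a 95% interval of -0.29 to 0.01 (standard error 0.06, edgeR adjusted p = 0.248), which also lies within 1.3-fold.

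The co-receptor Tgfbr3 followed the pattern of Tgfb1. It was at 151 and 146 CPM in Lenti-GFP 1 and 2, at 236 CPM in Lenti-AS 1 and at 142 CPM in Lenti-AS 2. The Lenti-AS samples again lay on either side of the controls, 1.65-fold apart, and 96.5% of the 10251 genes differed less between them. The log2 fold change of Tgfbr3 was 0.35 with a 95% interval of -0.18 to 0.88 (edgeR adjusted p = 0.393). It was 0.66 without Lenti-AS 2 and -0.0622 without Lenti-AS 1.

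Tgfb1 and Tgfbr3 were not alone in this. Of the 94 genes tested among the members and the pathway lists described next, 6 (6.38%) were at least 1.5 times as high in Lenti-AS 1 as in the next highest sample, against 3.69% of all genes tested. The 6 included Tgfb1 and Tgfbr3, whose values prompted this count, so no excess over all genes is read from it. The others, found after the values were seen, were the collagen chains Col1a1 and Col1a2, the pathway inhibitor Pmepa1 and the transcription factor Snai1. Col1a1 was at 841 and 721 CPM in Lenti-GFP 1 and 2, against 2131 CPM in Lenti-AS 1 and 290 CPM in Lenti-AS 2. Pmepa1 was at 4.91, 4.75, 9.32 and 2.93 CPM in the same order. In both, Lenti-AS 2 was the lowest sample. The SC marker Sox10 had the same order, at 77.1, 72.6, 163 and 61.2 CPM. Snai1 differed, at 2.16, 1.56, 3.80 and 2.37 CPM, with both Lenti-AS samples above both controls. The fibroblast list, summed over its 6 genes, was at 1106 and 960 CPM in Lenti-GFP 1 and 2, against 2360 CPM in Lenti-AS 1 and 573 CPM in Lenti-AS 2, and nearly all of it was Col1a1 and Pdgfrb. Pdgfrb did not have this order, at 262, 236, 225 and 279 CPM. The part of these differences in the values of Tgfb1 and Tgfbr3 was not tested.

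**Figure D2:**
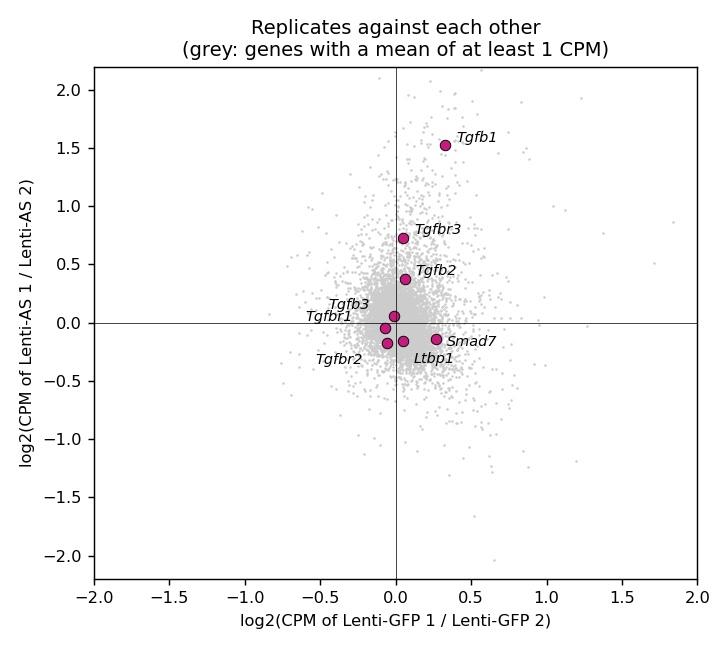
For each gene, the log2 ratio of CPM between the Lenti-AS samples (vertical axis, replicate 1 over 2) against that between the Lenti-GFP samples (horizontal axis). Pink points are the 8 members and grey points the genes averaging 1 CPM or more, of which 20 lie outside the axes. Tgfb1 (1.52) and Tgfbr3 (0.73) lie far up the vertical axis, and the other members between -0.17 and 0.38.

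Ltbp1, which stores latent TGF-beta in the matrix, had the smallest p among the members. Ltbp1 was at 55.1 and 53.3 CPM in Lenti-GFP 1 and 2 and at 39.8 and 44.4 CPM in Lenti-AS 1 and 2, from 5146, 5053, 3485 and 3334 counts. Both Lenti-AS samples were lower, with a gap of 8.96 CPM between the groups, more than the spread within either. The mean was 54.2 ± 1.28 CPM for the controls and 42.1 ± 3.24 CPM for Lenti-AS (± SD, n = 2). The log2 fold change of Ltbp1 was -0.37, or 1.29-fold lower (standard error 0.08, 95% interval -0.56 to -0.17), with an edgeR adjusted p = 0.0825 (unadjusted p = 0.00385). With DESeq2 the adjusted p of Ltbp1 was 0.00209, and over the tests, scalings and filters with all samples, a replicate block included, it ranged from 0.00209 to 0.156. The fitted change stayed just under 1.3-fold in DESeq2 (log2 fold change -0.37), so Ltbp1 was not called there.

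Without Lenti-AS 2, edgeR called 3 of the 8 members, Tgfb1 and Tgfbr3 higher and Ltbp1 lower, with 12.3% of all genes called in that fit. Ltbp1 then had a log2 fold change of -0.45 (adjusted p = 1.15e-05). Without Lenti-AS 1 it was -0.29 (adjusted p = 0.00309) and no member was called, the change being under 1.3-fold. Without Lenti-GFP 1 or 2 the adjusted p of Ltbp1 was 0.475 and 0.525, and its log2 fold change stayed between -0.45 and -0.29 whichever sample was left out.

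The sequence just upstream of Ltbp1 is shown because this member had the smallest p and its window holds both a motif of the TGF-beta pathway and one of the cAMP pathway. It is the 250 bases before the annotated start, 5′ to 3′ on the gene's strand, from RefSeq on GRCr8, a later build than the one used for the counts, at chr6:26177302-26177551 (minus strand). Capitals mark matches, on either strand, to CAGAC (the core SMAD binding element), TGACGTCA (the cAMP response element), TGANTCA (the AP-1 site) or GGGCGG (the GC box).
Ltbp1: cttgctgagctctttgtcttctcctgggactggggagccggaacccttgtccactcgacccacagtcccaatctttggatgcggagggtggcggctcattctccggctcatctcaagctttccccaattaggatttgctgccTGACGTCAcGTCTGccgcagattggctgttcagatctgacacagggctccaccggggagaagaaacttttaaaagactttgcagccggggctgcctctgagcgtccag

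The cAMP response element lay at bases -108 to -101 from the start and a SMAD core, on the other strand, at -99 to -95. All 9 members matched the promoter table by symbol. Ltbp1 and Skil held a SMAD core and the cAMP response element in this window, Tgfbr1, Tgfbr2, Tgfbr3, Skil and Smad7 held GC boxes, and Tgfb1, Tgfb2 and Tgfb3 held none of these motifs. No member's window held the AP-1 site. Of 33469 promoters of the same length, 42.9% held CAGAC, 1.59% TGACGTCA, 6.34% TGANTCA and 30.5% GGGCGG. A match is a run of letters in this window and does not show that a factor binds there.

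Smad7, the inhibitory SMAD that the pathway induces, did not separate the groups. It was at 14.4 and 12.0 CPM in Lenti-GFP 1 and 2 and at 11.4 and 12.6 CPM in Lenti-AS 1 and 2. Lenti-AS 2 lay between the controls, and the means, 13.2 ± 1.73 CPM for the controls and 12.0 ± 0.834 CPM for Lenti-AS (± SD, n = 2), differed by less than the SD of the controls. The log2 fold change of Smad7 was -0.13 with a 95% interval of -0.43 to 0.17 (standard error 0.12, edgeR adjusted p = 0.560).

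**Figure D3:**
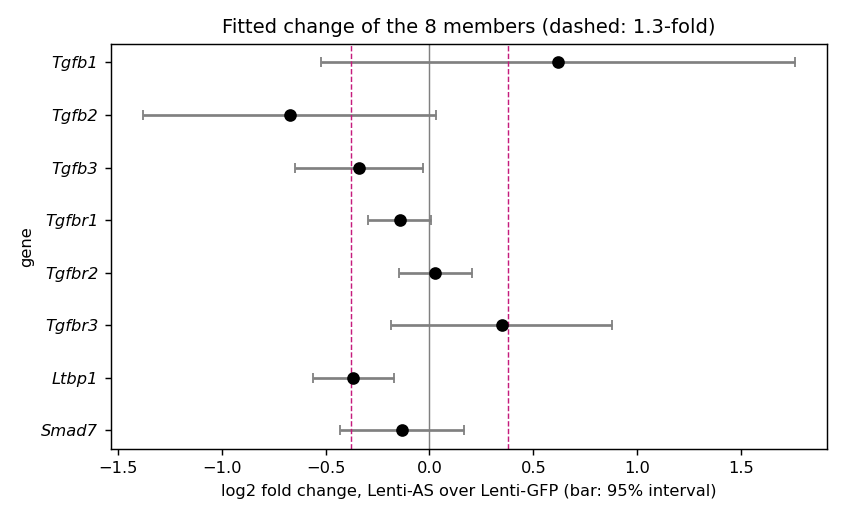
Fitted log2 fold change of Lenti-AS over Lenti-GFP for each member (points) with its 95% interval from edgeR's quasi-likelihood fit (bars). Dashed lines mark a change of 1.3-fold. The intervals of Tgfb3 and Ltbp1 exclude 0, those of Tgfbr1 and Tgfbr2 lie inside the dashed lines, and that of Tgfb1 is the widest.

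To set the members beside the rest of the pathway, 103 further genes were listed by role, of which 98 had a row and 86 were tested. Of these 86, edgeR called 4 (4.65%, against 1.98% of all genes), and all were on the list of genes known to respond to TGF-beta. The extracellular matrix genes Tnc, Postn and Tgfbi fell and the cell cycle inhibitor Cdkn1a rose. At an unadjusted p under 0.05 there were 11 higher and 19 lower (34.9%, against 21.8% of all genes), and the groups did not overlap for 58 (67.4%, against 54.9%). The median log2 fold change of the 86 was -0.0410.

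**Figure D4:**
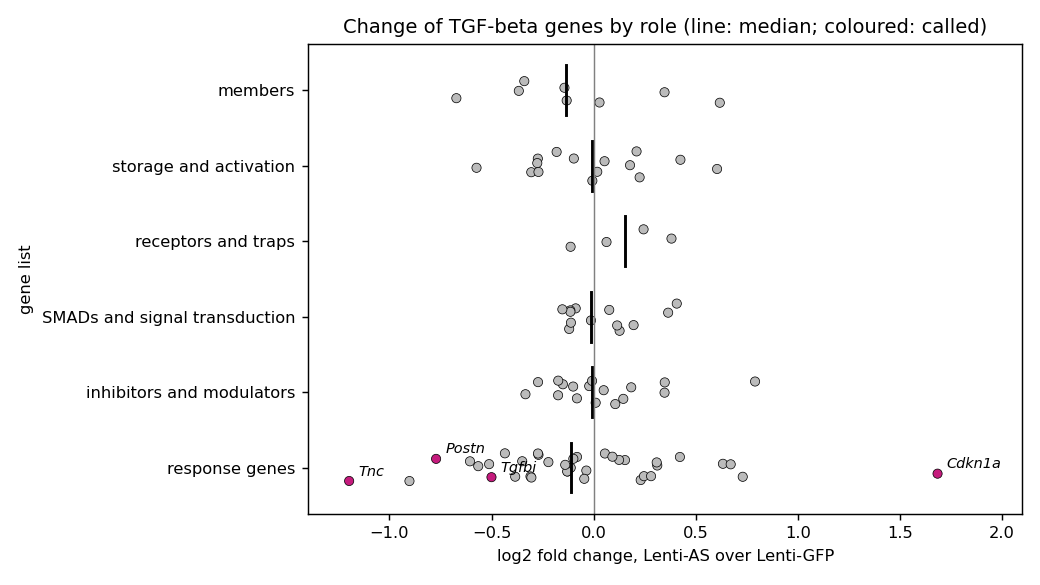
Log2 fold change of Lenti-AS over Lenti-GFP for the members and the 5 pathway lists, 1 point per gene tested, with the median of each list as a vertical line and called genes in pink. The called genes Tnc, Postn, Tgfbi and Cdkn1a are all in the row of response genes, and the medians lie between -0.14 and 0.15.

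On the list for storage and activation, 15 of 23 genes were tested and 0 were called by edgeR (1.98% of all genes were). At an unadjusted p under 0.05 there were 2 higher and 5 lower (46.7%, against 21.8% of all genes). The 3 smallest p-values belonged to Emilin1, Itgb3 and Thbs1, and both Lenti-AS samples were lower for each. Emilin1, a matrix glycoprotein that restrains maturation of the ligand, was at 106 and 100.4 CPM in Lenti-GFP 1 and 2 and at 83.7 and 87.2 CPM in Lenti-AS 1 and 2 (log2 fold change -0.27, edgeR adjusted p = 0.0931). The integrin chain Itgb3 was at 87.4, 89.2, 70.0 and 75.7 CPM in the same order (log2 fold change -0.28, adjusted p = 0.104). Thrombospondin 1 (Thbs1), which can free the ligand from its latent form, was at 47.1, 45.1, 39.5 and 35.1 CPM (log2 fold change -0.31, adjusted p = 0.119). Its log2 fold change was -0.39 without Lenti-AS 1 and -0.22 without Lenti-AS 2. The other LTBP genes were looked up as relatives of Ltbp1 after its values were seen. Ltbp2 was nearly absent, with 4 to 23 counts per sample. Ltbp3 was at 47.6, 34.1, 53.4 and 42.0 CPM (log2 fold change 0.23, adjusted p = 0.508). Ltbp4 was at 9.76, 7.72, 15.7 and 10.9 CPM (log2 fold change 0.60, adjusted p = 0.173), was called higher with DESeq2, and was the one gene of this list that DESeq2 called. Whether Ltbp3 or Ltbp4 differed in response from Ltbp1 was not tested.

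Of the receptors and traps, 4 of 7 were tested, and edgeR and DESeq2 called 0 (1.98% and 5.04% of all genes were). At an unadjusted p under 0.05 in edgeR there were 0, against 21.8% of all genes. Eng and Acvrl1, the endothelial co-receptor and receptor, were at or under 0.120 CPM in all samples. The decoy receptor Bambi had a log2 fold change of -0.11, the ligand trap Vasn of 0.24 and the receptor binding protein Tgfbrap1 of 0.38 (edgeR adjusted p = 0.499, 0.619 and 0.231). Tgfbrap1 rested on Lenti-AS 1, with a log2 fold change of 0.16 without it and of 0.57 without Lenti-AS 2.

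Among SMADs and their partners 13 of 14 were tested, and edgeR and DESeq2 called 0 (1.98% and 5.04% of all genes were). In edgeR, 1 had an unadjusted p under 0.05 (7.69%, against 21.8% of all genes). Smad2 was at 128 and 133 CPM in Lenti-GFP 1 and 2 and at 117 and 128 CPM in Lenti-AS 1 and 2. Smad3 was at 64.6, 62.0, 67.3 and 71.0 CPM, and Smad4, the common partner, at 192, 189.6, 164 and 188 CPM. The groups overlapped for Smad2, and for Smad3 and Smad4 a gap of 2.63 and 1.14 CPM separated them. Their log2 fold changes were -0.09, 0.13 and -0.11, with edgeR adjusted p = 0.468, 0.341 and 0.425. Smad2 and Smad4 were low mainly in Lenti-AS 1. Without that sample their log2 fold changes were -0.0271 and -0.0171, and without Lenti-AS 2 they were -0.15 and -0.22. The gene with the small p was the coactivator Crebbp, at 66.0, 58.4, 80.7 and 79.4 CPM in the same order (log2 fold change 0.36, adjusted p = 0.0845). Traf6, a ubiquitin ligase at the receptors, and Hgs, which sorts receptors in endosomes, had log2 fold changes of 0.20 and 0.41 (adjusted p = 0.243 for each). The log2 fold change of Hgs was 0.10 without Lenti-AS 1 and 0.66 without Lenti-AS 2.

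Of the inhibitors and other modulators, 17 of 19 were tested and 0 were called by edgeR (1.98% of all genes were). At an unadjusted p under 0.05 there were 3 higher and 4 lower (41.2%, against 21.8% of all genes). The 3 higher ones were Rnf111, Nedd4l and Smurf1, each a ubiquitin ligase. The 4 lower ones were Ldlrad4, Wwp1, Smad6 and Ppm1a, of which Wwp1 is also a ubiquitin ligase (log2 fold change -0.17, adjusted p = 0.194). The ubiquitin ligases Smurf2 and Stub1, looked up after the values were seen, had log2 fold changes of -0.10 and 0.05 (adjusted p = 0.314 and 0.750). Rnf111, whose product targets SMAD7 and SnoN and so favours signalling, was at 28.1 and 27.2 CPM in Lenti-GFP 1 and 2 and at 35.9 and 34.5 CPM in Lenti-AS 1 and 2 (log2 fold change 0.35, standard error 0.06, adjusted p = 0.0598). Nedd4l, which targets active SMAD2 and SMAD3, was at 19.9, 22.0, 41.9 and 30.6 CPM in the same order (log2 fold change 0.79, standard error 0.15, adjusted p = 0.0634). DESeq2 called Nedd4l alone on this list (adjusted p = 4.12e-05), while a replicate block gave an adjusted p = 0.111. Smurf1, which acts with SMAD7 on the receptors, was at 133, 133, 149.8 and 152 CPM (log2 fold change 0.18, adjusted p = 0.123). For Rnf111, Nedd4l and Smurf1, both Lenti-AS samples were above both controls.

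On the list of response genes 37 of 40 were tested. Of these, edgeR called 1 higher and 3 lower (10.8%, against 1.98% of all genes). DESeq2 called 2 higher and 6 lower, where it called 5.04% of all genes. At an unadjusted p under 0.05 in edgeR there were 5 higher and 10 lower (40.5%, against 21.8% of all genes). The median log2 fold change was -0.11. Tenascin C (Tnc), a matrix glycoprotein of injured nerve, was at 1242 and 1214 CPM in Lenti-GFP 1 and 2 and at 482 and 589 CPM in Lenti-AS 1 and 2. This was a 2.29-fold lower level (log2 fold change -1.20, standard error 0.10, edgeR adjusted p = 0.0144). Periostin (Postn), a matricellular protein, was at 6166, 6426, 3796 and 3580 CPM in the same order (log2 fold change -0.77, standard error 0.06, adjusted p = 0.0144). Tgfbi, a secreted matrix protein named for its induction by TGF-beta, was at 1328, 1363, 921 and 981 CPM (log2 fold change -0.50, standard error 0.06, adjusted p = 0.0252). In Tnc, Postn and Tgfbi the samples of a group lay close together and far from the other group. Tek, given above, was also lower in both Lenti-AS samples. The other endothelial markers listed, Pecam1, Cdh5, Kdr and Emcn, were at or under 0.364 CPM in all samples. A part of endothelial cells in the values of Tnc, Postn and Tgfbi was not tested. Tgfbi was not called with a replicate block (adjusted p = 0.0680), and no gene of the 4 was called when either Lenti-GFP sample was left out, where 1 gene of the whole table was called.

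The 250 bases upstream of the 3 genes called lower are shown for comparison with Ltbp1, with the same source and the same motifs in capitals. They are at chr5:82476132-82476381 (minus strand) for Tnc, chr2:140677811-140678060 (plus strand) for Postn and chr17:7990114-7990363 (minus strand) for Tgfbi.
Tnc: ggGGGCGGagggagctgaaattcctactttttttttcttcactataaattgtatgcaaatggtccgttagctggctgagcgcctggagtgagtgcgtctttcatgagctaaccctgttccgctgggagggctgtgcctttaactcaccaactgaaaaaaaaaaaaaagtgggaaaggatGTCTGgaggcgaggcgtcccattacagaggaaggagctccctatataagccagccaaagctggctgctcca
Postn: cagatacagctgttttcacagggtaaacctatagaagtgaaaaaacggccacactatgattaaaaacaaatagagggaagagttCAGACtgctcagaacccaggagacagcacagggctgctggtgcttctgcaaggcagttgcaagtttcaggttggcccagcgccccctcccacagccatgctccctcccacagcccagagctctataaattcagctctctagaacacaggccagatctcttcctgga
Tgfbi: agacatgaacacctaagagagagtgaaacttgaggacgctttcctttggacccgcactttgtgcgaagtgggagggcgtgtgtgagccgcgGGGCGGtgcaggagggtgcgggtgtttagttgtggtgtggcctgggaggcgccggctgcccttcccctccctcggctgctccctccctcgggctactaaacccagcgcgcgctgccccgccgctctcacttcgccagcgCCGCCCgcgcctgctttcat

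Tnc and Postn each held 1 SMAD core, at -71 to -67 and at -166 to -162, and Tgfbi held none. Tnc also held 1 GC box and Tgfbi 2. The cAMP response element of Ltbp1 and the AP-1 site were in none of these 3 windows.

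Cdkn1a, which TGF-beta, p53 and other signals induce, was at 16.8, 15.2, 61.5 and 41.2 CPM in Lenti-GFP 1, Lenti-GFP 2, Lenti-AS 1 and Lenti-AS 2 (log2 fold change 1.68, standard error 0.19, edgeR adjusted p = 0.0247). Collagen III (Col3a1) was at 3261, 2955, 2198 and 2400.5 CPM (log2 fold change -0.43, adjusted p = 0.0520) and passed the threshold with DESeq2 (adjusted p = 4.86e-06). Over the tests, scalings and filters with all samples its adjusted p ranged from that value to 0.0945.

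Tpm1, Ccn2 and Gadd45b were picked out after their values were seen. The tropomyosin gene Tpm1 had an adjusted p = 0.0464 but a change under 1.3-fold, with 265 and 262 CPM in Lenti-GFP 1 and 2 and 213 and 213 CPM in Lenti-AS 1 and 2. Ccn2, a matrix-associated growth factor, was at 51.8, 52.3, 42.1 and 30.8 CPM (log2 fold change -0.51, adjusted p = 0.128), and the stress response gene Gadd45b at 38.2, 39.4, 49.5 and 54.6 CPM (log2 fold change 0.42, adjusted p = 0.0577). DESeq2 called Ccn2 lower and Gadd45b higher. The response genes called by edgeR thus lay in both directions, with Tnc, Postn and Tgfbi lower and Cdkn1a higher.

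**Figure D5:**
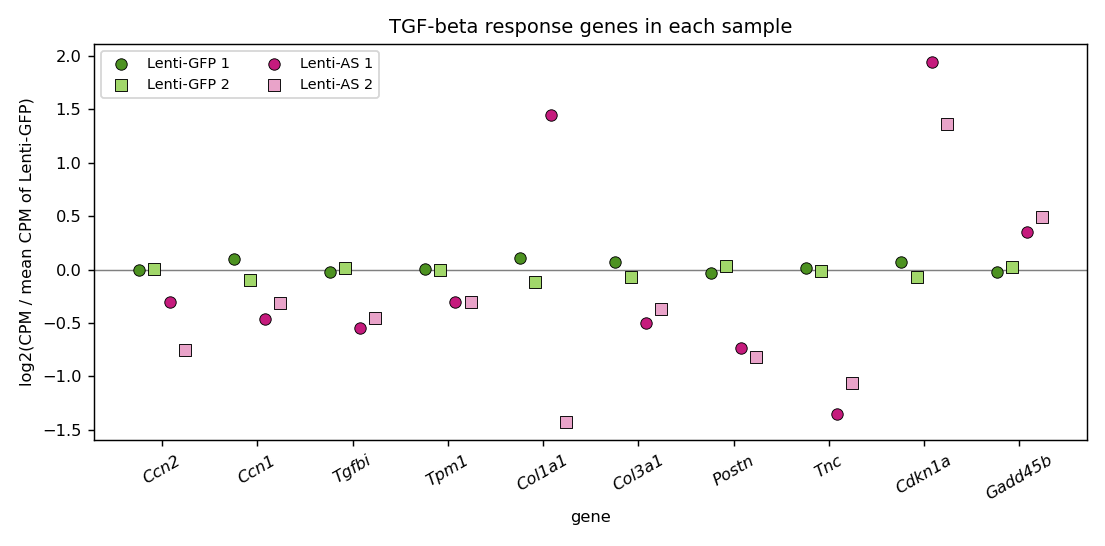
Level of 10 response genes in each sample, as log2 of CPM over the mean CPM of the 2 Lenti-GFP samples, with circles for replicate 1 and squares for replicate 2. Tgfbi, Postn and Tnc lie below the controls and Cdkn1a above them in both Lenti-AS samples, and Col1a1 is the highest in Lenti-AS 1 and the lowest in Lenti-AS 2. Ccn2, Col1a1, Gadd45b and Tpm1 were added after their values were seen.

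Over the 4 samples, the listed genes whose pattern was nearest to that of Ltbp1 were Ccn1 and Col3a1. The measure was the root-mean-square difference of log2 CPM, each gene taken relative to its Lenti-GFP mean, and it was 0.0541 for Ccn1 and 0.0583 for Col3a1. Ccn1, a secreted matrix-associated protein, was at 358 and 312 CPM in Lenti-GFP 1 and 2 and at 243 and 271 CPM in Lenti-AS 1 and 2 (log2 fold change -0.38, edgeR adjusted p = 0.0905). DESeq2 called Ccn1 lower (adjusted p = 0.00128). The likeness is given as a description of these 4 samples.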

How the data were processed

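RNA-seq counts of 2 Lenti-GFP and 2 Lenti-AS samples were used. The authors' methods name hisat2, rn6 and featureCounts on RefSeq exons, while the submitters' processing notes list GSNAP with featureCounts. They deposited whole-number counts per gene, without normalization. Versions and the settings for strand and shared reads are not given in the sources used here. From the table, 1 repeated header row was dropped, and 0 sample columns were unused. Genes reaching 10 counts in 2 or more samples (12446 of 17949) were fitted with edgeR 4.0.16 in R 4.3.3 (TMM, glmQLFit, glmQLFTest, no replicate term), with Benjamini-Hochberg adjustment over all genes tested. Standard errors came from the F statistic and 95% intervals from the t distribution with the fit's degrees of freedom. The biological coefficient of variation was 12.1%. Replicates differed beyond sampling noise (chi-square per gene 32.7 for Lenti-GFP, 105 for Lenti-AS, where 1 is expected of repeated sampling).

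Alternatives were DESeq2 1.42.0, limma-voom (limma 3.58.1), the likelihood ratio test, other scalings and filters, a replicate block, leaving out each sample or the globin genes, and other cut-offs. The test was tried on simulated counts. The members and lists were chosen with earlier results of these data known, so no list was tested as a set. Besides all members, the genes named were every called list gene, the 3 with the smallest p on each list, Smad2, Smad3 and Smad4 (Ski, also on the rule, was not analysed here, and 1 further gene of the rule is not reported here), and the 2 nearest in pattern to the member with the smallest p. Others named are said to have been picked after their values were seen, or serve as markers or LTBP relatives.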

Additional observations from a re-analysis of the deposited data

How the results depend on the processing

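That no member was called held under every test, scaling and filter and both looser adjusted cut-offs tried with all samples. It did not hold in every fit with 1 sample left out, where a group of 1 gives no spread of its own. With all samples, 2 members had an unadjusted p under 0.05 in edgeR. Members whose groups did not overlap numbered 4 under each scaling and 4 to 8 with a sample left out. Fewer samples make separation easier, and the share of all genes, 54.9%, is given only for all samples. The range of 4 to 8 therefore has no matching share of all genes, and no conclusion about the members is drawn from it. For the pathway lists (1 called higher, 3 lower), DESeq2 called 4 and 6, the likelihood ratio test 3 higher, library totals 2 higher and no low-count filter 3 higher. An adjusted p under 0.1 gave 3 higher and 5 lower, an unadjusted p under 0.05 gave 11 and 19, and leaving out 1 sample 0 to 11 and 0 to 9. Over all genes (163 higher, 83 lower), DESeq2 called 488 and 139, the likelihood ratio test 374 and 147, an adjusted p under 0.1 gave 344 and 133, and an unadjusted p under 0.05 gave 1550 and 1166. Leaving out 1 sample gave 0 to 1260 and 1 to 278. The cause of these shifts was not tested, and a group left with 1 sample is assumed to vary like the other.

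Nothing in the labels ties samples of equal number to a common culture, and their deviations from the group means correlated at -0.0176 over genes, so they were not treated as pairs. The fit with a replicate block left 3 genes higher and 14 lower, 0 members, and 1 and 2 list genes, on fewer residual degrees of freedom. Some log2 fold changes turned direction when 1 sample was left out. Tgfb1 ranged from -0.34 (without Lenti-AS 1) to 1.18, Tgfbr3 from -0.0622 (without Lenti-AS 1) to 0.66, and Tgfbr2 from -0.0600 (without Lenti-AS 2) to 0.11. Smad7 ranged from -0.26 to 0.0113 (without Lenti-GFP 1), and Vasn from -0.0412 (without Lenti-AS 1) to 0.49. No scaling, test or filter turned a direction among the members and the genes named by rule. Depth limits Tgfb2, with 33 to 77 counts per sample.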
